A study of Mus musculus with 6 samples.

Results

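The regions described here are 430 narrow intervals of the mouse genome at which peaks for the transcription factor RUNX1 were called both before and after the ovulatory stimulus, away from the ends of annotated genes. They were selected from 17190 replicated regions of granulosa cells collected 6 h after human chorionic gonadotropin (hCG). A replicated region is an interval, merged from overlapping peaks, to which both libraries of 1 time point contribute. Of the 17190 regions, 791 overlapped one of the 847 replicated regions found at 0 h, and 722 of those were under 2000 bp wide. The 430 regions are those whose summit, the highest point of the strongest peak by −log10 p, lay more than 1 kb from every gene end in the RefSeq table. The number depends on 0 h replicate 1, the shortest list, and would be 1072 without it. One of the 430 lies on the unplaced scaffold GL456216.1, for which the table holds no gene, so its distance could not be measured. The selection used the presence of peaks in all 4 lists, the width, the −log10 p and the position, so binding levels and their difference between time points are given as descriptions.

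RUNX1 was measured by chromatin immunoprecipitation and sequencing (ChIP-seq) in 4 libraries, 2 at 0 h and 2 at 6 h, and each time point also has 1 pooled input. The mice were 21 days old and came from a cross of CBA with C57BL/6 (F1). The labels give the 0 h cells as pre-ovulatory and the 6 h cells as peri-ovulatory granulosa cells. The 1 treatment text given for all samples is an injection of 5 IU of equine chorionic gonadotropin (eCG), then 5 IU of hCG 46 h later, with collection at 6 h; the 0 h group is therefore known from sample titles and the stated time only. How many mice were pooled for a library is not given, and nothing states that replicates came from separate animals.

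RUNX1 is a DNA-binding factor with a runt domain that, together with its partner CBFB, recognises the letters TGTGGT or TGCGGT. It can activate or repress transcription depending on the cofactors at a site. Granulosa cells surround the oocyte and make oestradiol before ovulation. The surge of luteinising hormone, which hCG mimics, induces Runx1 and starts ovulation and the change of these cells into luteal cells. Binding sites far from gene ends are commonly enhancers, although a peak alone does not show that a site is active.

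Distal is used below for regions away from gene ends, and not from every annotated start. Some of the 430 summits fell at an annotated start away from the gene ends, here called an internal start. There the RefSeq start table gives the sequence. The table holds windows from 250 bases before to 50 bases after each start. Of 423 regions on chromosomes with such windows, 19 (4.49%, exact 95% interval 2.73 to 6.93) had their summit within 1 kb of an annotated start. Among narrow 6 h regions away from gene ends that overlapped no 0 h peak, 761 of 7003 (10.9%) did. The summits of 14 regions lay inside 17 windows, and in 8 of the 14 the window nearest the summit held TGTGGT or TGCGGT on either strand. The following 5 are shown because the centre of a motif lay within 50 bp of the summit; the 150 bases printed end at or before the base ahead of the start, run 5′ to 3′ along the gene and carry the motif in capitals (ACCGCA is TGCGGT read on the opposite strand).
Kcnip3, chr2:127482600-127482749, minus strand: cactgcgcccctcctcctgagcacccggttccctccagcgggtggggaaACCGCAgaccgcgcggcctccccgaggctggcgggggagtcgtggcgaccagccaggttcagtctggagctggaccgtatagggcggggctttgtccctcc
Dpy30, chr17:74316434-74316583, minus strand: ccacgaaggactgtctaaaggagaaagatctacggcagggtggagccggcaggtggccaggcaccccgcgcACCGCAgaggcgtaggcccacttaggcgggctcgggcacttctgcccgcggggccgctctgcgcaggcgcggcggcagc
Cox5a, chr9:57521082-57521231, plus strand: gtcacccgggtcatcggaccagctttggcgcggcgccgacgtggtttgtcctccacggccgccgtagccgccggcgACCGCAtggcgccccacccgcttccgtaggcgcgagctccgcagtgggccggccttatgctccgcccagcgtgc
1810058I24Rik, chr6:35256841-35256990, plus strand: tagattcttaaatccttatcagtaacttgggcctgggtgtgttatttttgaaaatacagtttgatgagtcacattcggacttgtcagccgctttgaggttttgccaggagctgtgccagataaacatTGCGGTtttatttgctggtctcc
Aldh3b1, chr19:3929779-3929928, minus strand: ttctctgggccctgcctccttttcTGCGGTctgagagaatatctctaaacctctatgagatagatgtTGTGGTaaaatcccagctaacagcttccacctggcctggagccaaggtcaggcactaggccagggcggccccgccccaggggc

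In these sequences, from RefSeq on GRCm38.p6, the motif centre was 12 bp from the summit at Kcnip3, which encodes a calcium-binding partner of potassium channels. The distance was 13 bp at Dpy30, a subunit of histone H3 lysine 4 methyltransferase complexes, and 14 bp at Cox5a, a subunit of cytochrome c oxidase. It was 20 bp at 1810058I24Rik and 40 bp at Aldh3b1, an aldehyde dehydrogenase, whose window held both spellings. In the windows of Arih2, Atg4c and Eprs the motif lay 51, 74 and 162 bp from the summit. The windows nearest the summits at Skp1, Tcam1, Cdc42bpb, Aptx, Smim14 and Oxtr held neither spelling. The window of Oxtr, the oxytocin receptor gene, is shown as a GC-rich example without it.
Oxtr, chr6:112489826-112489975, minus strand: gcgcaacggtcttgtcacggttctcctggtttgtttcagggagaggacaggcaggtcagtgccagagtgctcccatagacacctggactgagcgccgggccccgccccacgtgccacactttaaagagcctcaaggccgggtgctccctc

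Counted over windows, 9 of the 17 (52.9%, exact 95% interval 27.8 to 77.0) held TGTGGT or TGCGGT. All 9 held TGCGGT and 1 also held TGTGGT. Over all 32851 windows of the table, 22.4% held at least 1 of the spellings, 16.8% held TGTGGT and 6.45% held TGCGGT. The windows differ in base composition: the median GC content was 65% for the 17 windows and 52.7% for all, and the median number of CpG was 30 and 7. TGCGGT itself holds a CpG, and the part of composition in these shares was not tested. With a median GC content of 65% and a median of 25 CpG, the windows that held a summit of a 6 h-only region away from gene ends carried a motif in 73 of 292 cases (25%, 20.1 to 30.4). All regions of that class had a median fold over the local background of 8.52 and 14.7 at 6 h, beside 17.5 and 29.2 for the 430. The part of peak strength was not tested either. The windows that held a summit of a narrow shared region at a gene end, with a median GC content of 63.7% and a median of 27 CpG, carried one in 97 of 177 cases (54.8%, 47.2 to 62.3). TGCGGT was in 36.7% and TGTGGT in 23.2% of these windows, against 15.4% and 12.3% at the 6 h-only distal regions. The share at the distal shared regions rests on 17 windows of 14 regions, some of which overlap, and was not tested.

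**Figure D1:**
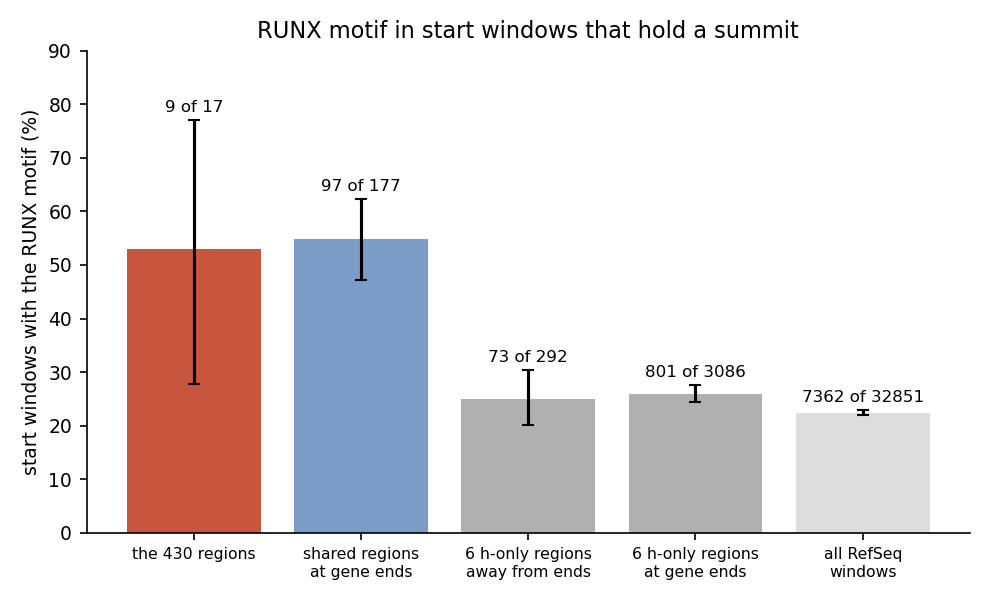
Share of start windows (%) that hold TGTGGT or TGCGGT for each class of region, with exact 95% intervals and the number of windows. The 17 windows at distal shared regions stand at 52.9%, beside 54.8% at shared gene-end regions and 25% at 6 h-only distal regions. The share is 26.0% at 6 h-only gene-end regions and 22.4% over all windows.

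At the 14 internal starts the deposited fold enrichment, the ChIP signal over the local background at the summit, can be ranked within each list. The mean percentile over the 4 lists ran from 38.0 at Eprs to 95.7 at 1810058I24Rik, with a median of 80.7. At Cox5a the fold was 9.26 and 17.2 before hCG against 40.2 and 55.7 after it. At Tcam1 it was 12.5 and 17.0 at 0 h, then 9.96 and 12.8 at 6 h, and this was the 1 internal start among the 14 at which the pileup levels of the time points overlapped.

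Across the 430 regions, the median deposited fold was 8.49 and 9.57 in the 0 h libraries and 17.5 and 29.2 in the 6 h libraries. The folds spanned 2.00 to 23.8 and 2.59 to 38.4 at 0 h, and 3.03 to 61.4 and 3.95 to 89.9 at 6 h. Since fold depends on the depth of each library and input, 2 further measures were used. The first is the rank of a fold within its own list. The second is the level, the number of reads piled up at the summit divided by the genome-wide background of that library, on a log2 scale. The pileup and the background were solved from the authors' fold and −log10 p. The lists held 948 and 3135 peaks at 0 h and 18761 and 28671 at 6 h, with a genome-wide background of 2.77, 2.65, 2.76 and 2.13 reads in the same order. The total read number was not given in the sources used here.

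The median fold percentile of the regions was 62.0 in replicate 1 and 80.2 in replicate 2 before hCG; after it, the values were 89.5 and 93.6. The lists differ in length, and the 430 regions fill a large part of the shortest one. A change between time points can therefore not be read from these ranks. In 38 regions the fold was above the 90th percentile of all 4 lists, while 45 regions had a mean percentile below 50. Narrow 6 h-only regions away from gene ends had median percentiles of 49.3 and 70.9 in the 6 h lists. The median percentile minus that of the narrow shared regions at gene ends was 21.9 points in 0 h replicate 1 and −0.94 points in 0 h replicate 2. It was −1.20 points in 6 h replicate 1 and 1.79 points in 6 h replicate 2. The mean difference of 5.39 ± 11.1 points (SD, n = 4) was smaller than its spread, and its sign was not the same in all libraries. With peaks of a −log10 q of at least 20 only, the mean difference was −0.25.

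The median summit pileup in reads was 40 and 44 at 0 h, then 107 and 151 at 6 h. As levels on the log2 scale the medians were 3.85, 4.05, 5.28 and 6.15. The mean level of the 0 h libraries was 3.95 ± 0.14 (SD, n = 2) and that of the 6 h libraries 5.71 ± 0.61 (SD, n = 2), a difference of 1.76 or 3.38-fold. Both 6 h medians lay above both 0 h medians. With 2 libraries against 2, an exact two-sided permutation test cannot give a p below 0.333, so no test was drawn on. A difference in how well the immunoprecipitation enriched bound DNA cannot be told apart from a difference in binding in these lists.

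**Figure D2:**
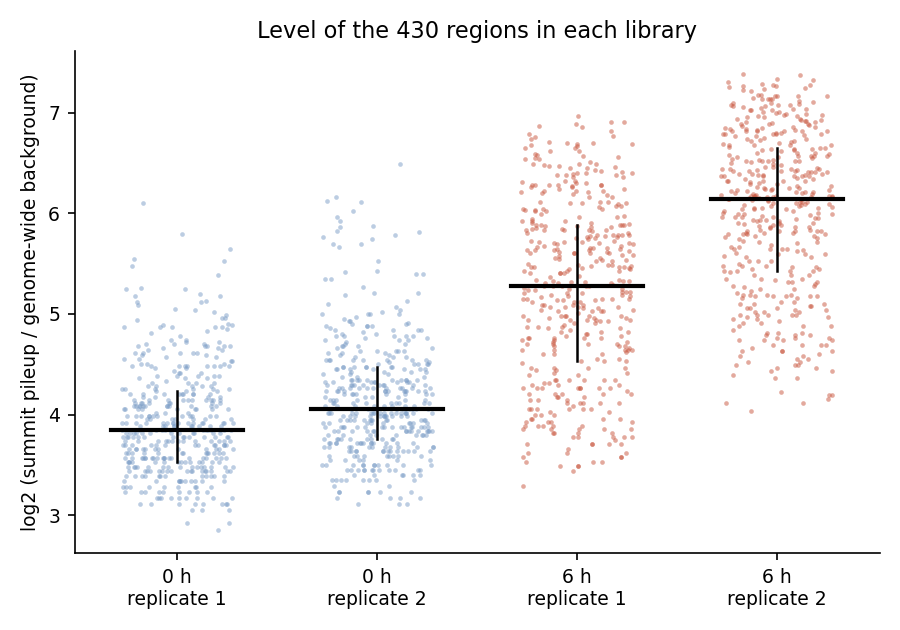
Level of RUNX1 signal (log2 summit pileup over the genome-wide background, y axis) in each of the 4 libraries (x axis) for the 430 distal shared regions. The medians of the distal shared regions are 3.85 and 4.05 before hCG against 5.28 and 6.15 after it.

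Single regions differed widely in this respect. The difference between the time points in mean level ranged from −0.48 to 3.24 on the log2 scale, with quartiles of 0.99, 1.59 and 2.19, and was below 0 in 12 regions. In 377 of 430 regions (87.7%) both 6 h libraries lay above both 0 h libraries. The same held for 91.3% of all 791 shared regions, which include the 430; the shares are close and their gap was not tested. In none of the 430 did both 6 h libraries lie below both 0 h libraries, and in 53 the time points overlapped. At shared gene ends the count was 277 of 292 (94.9%). The median level of the distal regions minus that of the gene-end regions was 0.19 and −0.10 in the 0 h libraries and −0.36 and −0.05 in the 6 h libraries, so the change of this gap from 0 h to 6 h was −0.26 with overlapping time points. On the authors' fold scale in place of the level, 78.4% of the distal regions had both 6 h values above both 0 h values.

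**Figure D3:**
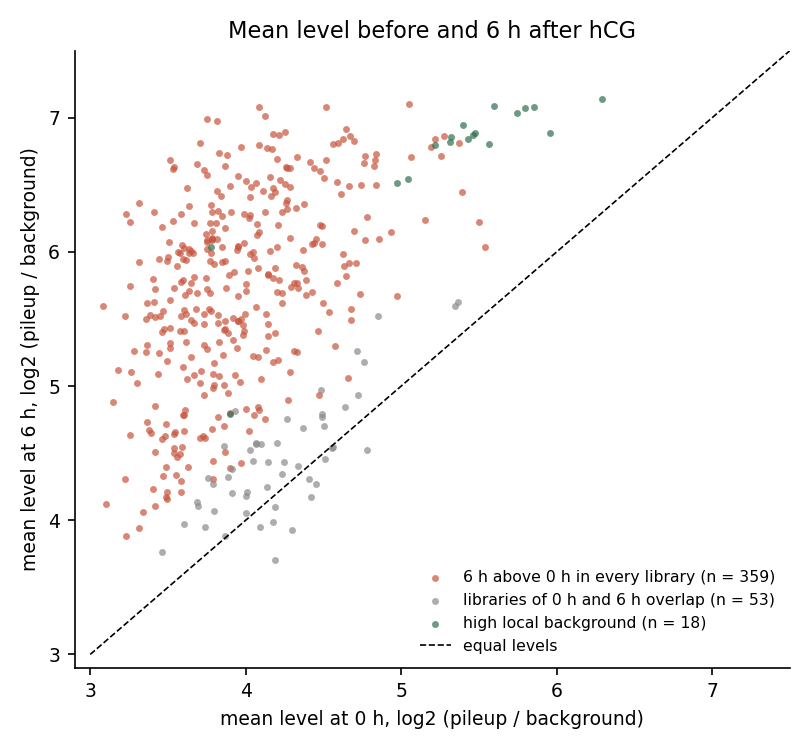
Mean level at 0 h (x axis) against mean level at 6 h (y axis), both as log2 summit pileup over the genome-wide background, for the 430 regions. Regions whose time points overlap (53) lie near the line of equal level, and 12 regions lie below it.

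The 53 regions with overlapping time points had a median width at 6 h of 442 bp, against 913 bp for the other 377; at 0 h the widths were 361 and 354 bp. The groups are defined by the levels, so the levels are given only to describe them. Their median level was 4.19 against 3.90 at 0 h and 4.43 against 5.84 at 6 h. Width at 6 h moved with the difference. Among the 82 regions under 500 bp wide the median difference was 0.66 and 49 (59.8%) had both 6 h libraries higher. Among 188 regions from 500 bp to under 1000 bp the values were 1.61 and 169 (89.9%), and among 160 regions from 1000 bp to under 2000 bp they were 2.07 and 159 (99.4%). Width and level come from the same peak calls and are not independent measures.

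The region with the highest mean percentile (99.6) lay inside Axl, a receptor tyrosine kinase that binds GAS6, on chromosome 7 from 25780979 to 25782471. Its fold was 20.2 and 31.0 at 0 h, then 45.7 and 72.6 at 6 h, and its level was 5.05, 5.69, 6.46 and 7.16 in the same order. Inside Greb1, a gene known for its induction by oestrogen, the region on chromosome 12 from 16760089 to 16761056 had folds of 23.0 and 20.01 before hCG against 46.6 and 72.6 after it. Its mean percentile was also 99.6. Others of the 10 highest-ranked regions lay inside Nsf, an ATPase of vesicle fusion, Ppcdc, an enzyme of coenzyme A synthesis, Tbc1d8 and Clasp2, a microtubule-binding protein. One stood 14139 bp from an end of Bdkrb2, a bradykinin receptor gene, and one inside Mcph1 stood 2439 bp from an end of Angpt2, the gene of the vessel growth factor angiopoietin 2. The remaining ones lay inside Gm41323 and 5028 bp from an end of C230072F16Rik. In all 10 both 6 h levels lay above both 0 h levels, by 1.09 (Tbc1d8) to 2.17 (Clasp2) on the log2 scale of the means; 91.3% of all shared regions were in this state.

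The largest difference between time points was at a region inside Gm39608, on chromosome 11 from 20895993 to 20897217. Its level was 3.78 and 3.72 at 0 h, then 6.65 and 7.33 at 6 h, a difference of 3.24 or 9.46-fold. Regions near Sbf2 (3.17), Slc16a11 (3.16), Kazn (3.11) and Gm32900 (3.09) followed. Before hCG the fold was 4.69 and 6.28 near Sbf2 and 7.59 and 9.88 near Slc16a11. The smallest differences were near Gm51286 (−0.48), near Atp13a2 (−0.37), inside Slc5a4b (−0.26), near Gm36235 (−0.24) and near Rab12 (−0.19). At Slc5a4b, a member of a sodium-coupled sugar transporter family, the level was 4.82 and 4.74 before hCG against 4.03 and 5.02 after it. In all 5 of these regions the time points overlapped.

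Listed genes were taken to have a distal shared region if a summit lay inside the gene or within 50 kb of an end. A region so counted can lie inside, or nearer to, another gene. By this measure 756 of 21896 protein-coding genes (3.45%) had one. Of 20 genes of granulosa identity and hormone response, 6 had one (30%): Foxl2, Wt1, Gata4, Nr5a2, Inha and Lhcgr. The granulosa marker list, which shares 5 of these genes, reached 5 of 12 (41.7%). Of 52 markers of leukocytes, endothelium, theca and stroma, oocytes, and erythroid cells and megakaryocytes, 0 had one. Beside the 3.45% of all coding genes, 0 of so few genes does not set these markers apart. Narrow 6 h-only regions away from gene ends lay at 17 of the 20 granulosa identity genes, against 36.5% of all coding genes, and they were also found at 6 of 12 leukocyte, 6 of 10 endothelial, 10 of 10 theca and stroma, 1 of 10 oocyte, and 3 of 10 erythroid and megakaryocyte markers. The median gene length was 30240.5 bp in the granulosa identity list, 37220 bp in the granulosa marker list and 17149 bp over all coding genes. It was 28428.5 bp for leukocyte, 44569 bp for endothelial, 15025.5 bp for theca and stroma, 6901 bp for oocyte, and 4168 bp for erythroid and megakaryocyte markers, and the part of length in these shares was not tested.

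**Figure D4:**
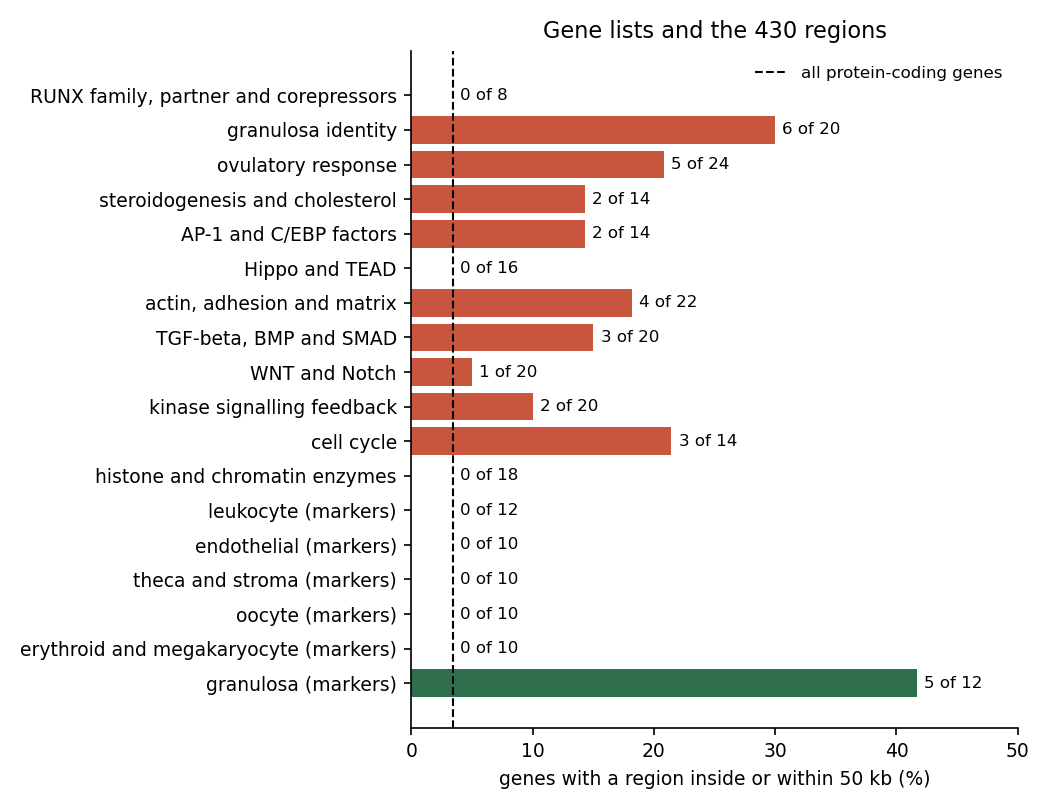
Share of the genes of each list (%, x axis) that have a distal shared region inside them or within 50 kb of an end, with the count beside each bar and the dashed line at 3.45% for all protein-coding genes. Granulosa markers reach 5 of 12 and granulosa identity genes 6 of 20. The 5 marker lists of other cell types, of 10 or 12 genes each, stand at 0, which at these sizes does not differ clearly from 3.45%.

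Among the transcription factors, the region 34089 bp from an end of Gata4, a zinc-finger factor of the gonadal soma, had the highest 0 h level. Its summit lay inside another gene, Fdft1, which encodes squalene synthase, 16862 bp from the nearest end of that gene. Its fold was 19.9 and 28.2 at 0 h, then 15.8 and 25.2 at 6 h, and its level was 5.24, 5.76, 5.92 and 6.52. The region 7055 bp from an end of Foxl2, the forkhead factor that maintains granulosa cell identity, had a level of 4.36 and 4.21 before hCG against 4.87 and 5.33 after it. The region inside Wt1, a zinc-finger factor of gonadal development, had a level of 2.85 and 3.35 at 0 h, then 3.78 and 4.46 at 6 h. Near Nr5a2, the nuclear receptor LRH-1 needed for luteal function, the level was 3.48 and 4.02 before hCG against 4.76 and 5.79 after it, 9554 bp from a gene end. At each of these 4 genes both 6 h levels lay above both 0 h levels, by 0.72 at Gata4 to 1.53 at Nr5a2, as in 91.3% of all shared regions. On the deposited fold the time points overlapped at Gata4, and each replicate was lower at 6 h than the 0 h library of the same number.

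The region 6632 bp from an end of Inha, the inhibin alpha subunit gene, stood nearer to Stk11ip, at 4531 bp. It had a level of 4.44 and 4.55 at 0 h, then 5.67 and 6.44 at 6 h. Inside Lhcgr, the gene of the receptor for luteinising hormone and hCG, the level was 4.17 and 4.35 before hCG against 6.04 and 6.68 after it, a difference of 2.10 or 4.29-fold. This region, on chromosome 17 from 88755248 to 88757171, stood 36026 bp from the nearest end of Lhcgr. At the steroidogenic genes, the region 10066 bp from an end of Cyp11a1, which encodes the enzyme that starts steroid synthesis from cholesterol, lay inside Ccdc33, and its level went from 4.11 and 4.45 to 6.32 and 6.65. Inside Scarb1, the receptor for high-density lipoprotein, the level was 4.74 and 4.80 at 0 h, then 5.72 and 6.45 at 6 h. These were the 2 of 14 genes of that list.

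Of 24 genes of the ovulatory response, 5 had a distal shared region (20.8%). Near Nr4a1, an orphan nuclear receptor induced by luteinising hormone, the level was 4.08 and 4.32 before hCG against 6.49 and 6.89 after it, a difference of 2.49. The region stood 7403 bp from a gene end. Near Vegfa, the vascular endothelial growth factor gene, the region stood 41706 bp from an end, with Mrps18a nearer at 36921 bp, and the level was 4.08 and 5.04 at 0 h, then 6.56 and 7.05 at 6 h. Zbtb16, a zinc-finger repressor, held 2 regions, with differences of 1.44 and 1.53. Cited4, a transcriptional coactivator, and Rgcc, a regulator of the cell cycle, each had 1 within 50 kb, with differences of 2.17 and 1.70. The nearest coding genes to these were Gm8439, at 18281 bp, and Zfp957, at 16177 bp. All 6 regions of these 5 genes had both 6 h levels above both 0 h levels, as did 91.3% of all shared regions. On the deposited fold the time points overlapped at the Zbtb16 region with the difference of 1.44. Its fold was 12.4 and 17.1 at 0 h, then 11.1 and 24.7 at 6 h.

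In the list of AP-1 and C/EBP factors, 2 of 14 genes had a distal shared region. The one near Fos stood 1572 bp from an end and had a level of 3.74 and 3.72 before hCG against 5.13 and 5.79 after it. The one near Fosb, at 9999 bp, had 4.11 and 4.45 at 0 h, then 6.42 and 6.83 at 6 h. Of 20 genes of TGF-beta, BMP and SMAD signalling, 3 had one. These were Smad7, an inhibitory SMAD, with a difference of 2.89 inside the gene, Id1 with 2 regions (1.40 and 1.24) and Id3 (1.06); the ID proteins block basic helix-loop-helix factors. Both regions counted for Id1 lay inside another gene, H13, at 44217 and 41424 bp from Id1 and at 4088 and 6881 bp from an end of Mcts2. Notch3, a receptor, was the 1 gene of 20 in the WNT and Notch list (5%, beside 3.45% of all coding genes), with a difference of 2.38.

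Of 22 genes of actin, adhesion and matrix, 4 held a region inside the gene (18.2%); of all coding genes, 243 of 21896 did. The median gene length was 83103 bp in this list and 17149 bp over all coding genes. At Clasp2 the fold was 16.7 and 17.2 before hCG against 61.4 and 87.1 after it. At Cttn, an actin-binding protein of the cell cortex, and Actn1, an actin cross-linker, the differences in level were 1.64 and 1.86. The region inside Col4a1, a chain of basement membrane collagen, had a level of 4.28 and 4.82 at 0 h, then 4.39 and 4.69 at 6 h, so the time points overlapped with a difference of −0.01. Overlap was also seen inside Prkce, a protein kinase C gene, with a difference of 0.17. Near Mycn, a MYC family gene, the levels were 4.36 and 4.61 before hCG against 4.15 and 5.43 after it. Mycn was 1 of 3 genes of 14 in the cell cycle list (21.4%). The other two were Ccnd3, a D-type cyclin (1.96), and Cdkn1b, which encodes the inhibitor p27; the region 36415 bp from Cdkn1b, with Apold1 nearer at 20061 bp, had a fold of 10.3 and 15.3 at 0 h, then 54.8 and 79.5 at 6 h. Igf1r, the receptor for insulin-like growth factor 1, held the second region of the kinase signalling list, with 2 of 20 genes and a difference of 0.95. In 3 of the 12 pathway lists no gene had a distal shared region: a list of 8 genes of the RUNX family, its partner and some corepressors (0 of 8), Hippo and TEAD (0 of 16) and histone and chromatin enzymes (0 of 18). The share over all coding genes was 3.45%, so 0 in lists of these sizes does not set them apart. The RUNX list does not hold every RUNX corepressor gene. Cbfa2t3 (ETO family) and Tle2 (TLE family), outside it and picked after their values were seen, held 2 and 1 distal shared regions.

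The genes next to the distal shared regions often had a separate RUNX1 region at one of their own ends after hCG. Of 406 protein-coding genes that held a region or had the nearest end to one, 235 (57.9%, exact 95% interval 52.9 to 62.7) had a replicated 6 h region within 1 kb of an end. Over all coding genes the share was 8153 of 21896 (37.2%). At 0 h the counts were 10 of 406 (2.46%) and 326 of 21896 (1.49%). The 406 genes had a median length of 65439 bp, against 17149 bp over all coding genes. The part of length in this gap was not tested.

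Most of the regions stood alone. With summits no more than 50 kb apart, 355 were single, 50 formed 25 pairs and 25 fell in 6 groups of 3 or more. Greb1 held 3 within 15598 bp, and besides the highest-ranked one described above they had mean percentiles of 94.0 and 41.5. Ksr1, a scaffold of the RAF and MAP kinase pathway, held 3 with percentiles of 63.2, 77.3 and 91.3. Smoc2, a secreted matrix-associated calcium-binding protein, held 3 with percentiles of 93.6, 92.1 and 77.1. A further 3 lay on chromosome 14 between 76574996 and 76623279, outside annotated genes, with Serp2 as the nearest protein-coding gene. In these 12 regions both 6 h levels were above both 0 h levels, the state of 91.3% of all shared regions. On the deposited fold the time points overlapped at the Greb1 region of percentile 41.5. Its fold was 7.03 and 8.27 at 0 h, then 5.20 and 10.7 at 6 h.

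The other two groups together made an array on chromosome 6 with a high local background. Its 13 regions lay between 47659149 and 47773246, among predicted genes such as Gm40367, Gm40365, Gm36327, Gm40363 and Gm52861. Of the 12 gaps between neighbouring summits, 6 fell in a chosen range of 4000 to 4600 bp. These ran from 4215 to 4419 bp, with a median of 4346 bp, and the other gaps from 3739 to 54030 bp. Gaps were taken between the 13 regions only and skip other replicated 6 h regions of the span. The local background at the 13 summits, in reads, had medians of 24.5 and 24.2 before hCG against 29.9 and 23.6 after it. The 412 regions without high background had 3.61, 3.46, 4.82 and 3.73. The median pileup of the 13 was high, at 96, 149, 287 and 288 reads, and their median fold was low, at 3.76, 5.94, 9.81 and 11.9. The difference between time points was alike along the array, from 1.23 to 1.58, and in 13 of 13 both 6 h levels lay above both 0 h levels, the state of 91.3% of all shared regions. In the same span there were 25 replicated 6 h regions, of which 7 lay within 1 kb of a gene end.

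**Figure D5:**
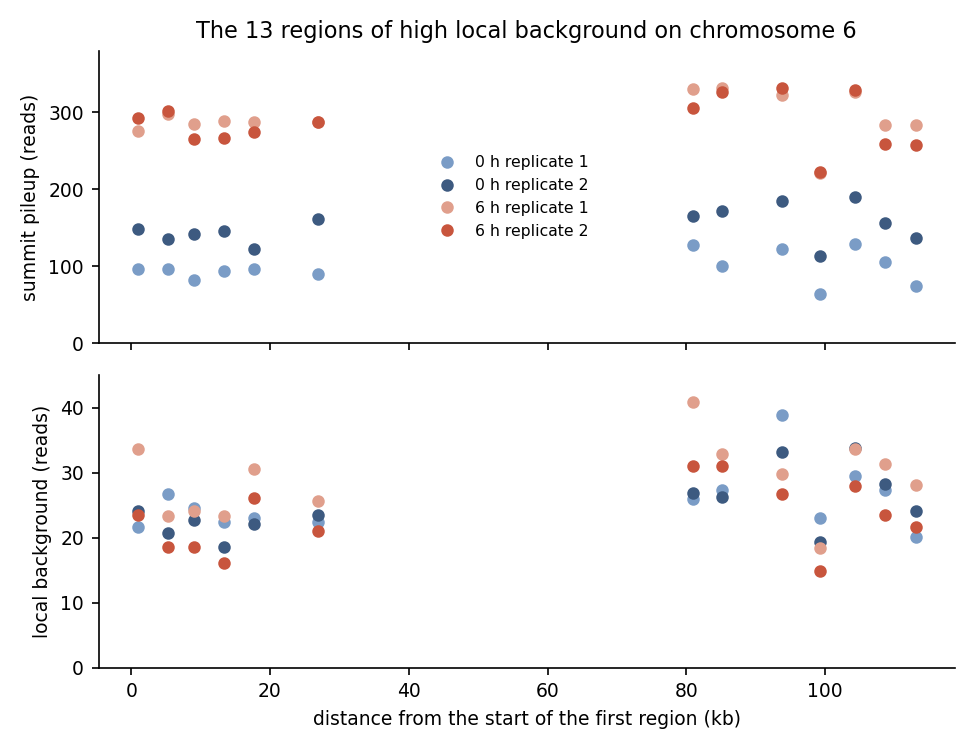
Summit pileup (reads, upper panel) and local background (reads, lower panel) of the 13 regions on chromosome 6 in the 4 libraries, against the distance from the start of the first region (kb, x axis). The 6 h points lie above the 0 h points in the upper panel, with medians of 287 and 288 reads against 96 and 149, and the background medians lie between 23.6 and 29.9 reads.

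High local background, above 5 times the genome-wide value in at least 1 list, was found in 18 regions, the 13 of the array and 5 others. Of the 5 lowest-ranked regions, those inside Gm36876, Cdk8, Trmo and Gm52861 were among the 18 and the one inside Gm51900 was not. The one inside Gm36876 on chromosome 11, from 109011593 to 109012124, had a background in reads of 94.6 and 91.2 at 0 h, then 113 and 85.7 at 6 h, with folds of 2.00, 2.59, 3.03 and 3.95. The one inside Cdk8, a kinase of the Mediator complex, had folds of 2.16, 2.69, 3.33 and 4.09. Without the 18 regions, the difference in median level was 1.73 over 412 regions, and 87.1% had both 6 h libraries higher.

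By position, 269 of the 429 regions on chromosomes in the gene table had their summit inside a gene (62.7%, exact 95% interval 57.9 to 67.3), and 236 (55.0%) inside a protein-coding gene. The share was 63.4% for narrow shared regions at gene ends and 68.0% (66.9 to 69.1) for narrow 6 h-only regions away from ends. The table gives whole genes, so exons and introns were not separated. The median distance to the nearest gene end was 9818 bp, with quartiles of 4124 and 22312 bp and a maximum of 217837 bp. Of the 429, 30.3% lay 1 to 5 kb from an end, 21.2% at 5 to 10 kb, 38.9% at 10 to 50 kb and 9.56% beyond 50 kb; for the 6 h-only regions these shares were 37.2%, 17.3%, 36.4% and 9.17%. The median difference between time points was 1.57 for 269 regions inside and 1.70 for 161 not inside an annotated gene, the scaffold region included, and 236 and 141 of them had both 6 h levels higher.

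The summits of a region lay close together before and after hCG. The median distance between the 0 h and 6 h summits of a region was 26, 23, 25 and 26 bp over the 4 pairs of libraries, beside 24 bp between the 0 h replicates and 17 bp between the 6 h replicates. Between 92.1% and 97.2% of the summits of a pair were within 100 bp. At the shared gene-end regions the medians across time points were 36.5, 35, 38 and 32.5 bp. The intervals themselves were wider at 6 h, with a median region width of 835.5 bp against 356.5 bp at 0 h.

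Regions on either side of the limits of the selection had the following folds, in the order of the libraries. The widest regions kept were 1993 bp (inside Arhgap23; fold 6.24, 8.53, 19.3 and 16.1) and 1983 bp (inside Lrp8os3; 9.18, 14.9, 35.4 and 46.6). The narrowest left out were 2006 bp (inside Greb1, on chromosome 12 from 16763915 to 16765920; 12.5, 10.8, 19.6 and 29.2) and 2055 bp (nearest Gm42194; 18.9, 22.6, 34.0 and 46.6). The regions nearest a gene end were at 1009 bp (Exoc3l2; 17.3, 19.4, 25.4 and 40.1) and 1057 bp (Lrp8os3). Just within the limit, and so left out, were regions 903 bp from an end of Shbg (10.3, 9.33, 7.67 and 16.1) and 895 bp from an end of Gm52861 (3.53, 7.42, 8.09 and 10.3).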

How the data were processed

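RUNX1 ChIP-seq peak lists of 4 libraries were used. The pooled inputs have no list of their own here. Reads were aligned with Bowtie2 2.2.5 to mm10 and peaks called with MACS2, per the submitters' processing notes; the MACS2 version and settings are not given in the sources used here. The deposited lists give each peak's fold enrichment, a ratio to the local background, its −log10 p and −log10 q, and a score that was not used. Groups come from the sample titles.

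From each deposited pair of fold and −log10 p, a pileup in whole reads and its background were recovered (pseudocount 1, Poisson tail, misfit in −log10 p of at most 0.005); all 51515 peaks had a solution. The commonest background of a list is its genome-wide background. Peaks were merged on 1 bp of overlap, and genes were taken from RefSeq on GRCm38.p6, with no strand. The work used Python 3.11.15, numpy 2.4.6, pandas 2.3.3 and scipy 1.17.1, and the solving step was tested on simulated data. Shares carry exact Clopper-Pearson 95% intervals for counting error only.

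The regions, gene lists and comparisons were chosen with earlier results of these data known. Regions named are the 10 highest and 5 lowest by mean percentile, the 5 largest and 5 smallest differences, those inside or within 50 kb of listed genes (up to 30), genes or clusters with 3 or more, those nearest the limits and, chosen after their values were seen, the 14 at internal starts. No genome was used, so the planned motif count around summits and its alternatives were not run. The start-window count, the high-background limit and the crossed replicate numbers were chosen after seeing the data. The sample labels do not state whether equal replicate numbers pair the libraries. Replicate 1 minus replicate 2 at 0 h and at 6 h had a correlation of −0.20 over 430 regions. With 2 libraries per time point this cannot decide the question.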

Additional observations from a re-analysis of the deposited data

How the results depend on the processing

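The count of 430 regions depended most on 0 h replicate 1, the shortest list: leaving out 1 library at a time gave 443 to 1072 regions, the highest without 0 h replicate 1. A −log10 q of at least 20 left 214 regions and a width limit of 1000 bp left 270. The difference in median level, 1.76, ranged from 1.34 to 2.14 without 1 library and was 1.33 on the deposited fold scale. The share with both 6 h values higher, 87.7%, was 88.0% to 97.4% without 1 library, where fewer values are compared, and 78.4% on the deposited fold scale. Compared within replicate numbers (replicate block), the difference was again 1.76 and the share was 91.4% (393 of 430); with crossed numbers it was 386 of 430. The percentile difference from gene-end regions, 5.39, turned to −0.25 at a −log10 q of at least 20, was 1.89 when regions were ranked by recovered pileup and 6.10 to 6.80 without 1 library; the cause was not tested. The share inside genes was 62.0% to 66.2% without 1 library. The summit distance across time points, 25 bp, was 20.5 bp at a −log10 q of at least 20 and 24.5 to 31 bp without 1 library. The longer motif TGTGGTT or TGCGGTT was in 23.5% of the 17 start windows and in 6.75% of all windows. Over all results and alternatives, 52 values stayed within their limit, 11 moved beyond it and 1 changed sign. The limit was 1.5 times for counts, the 95% interval for shares and the spread between pairs of libraries for summit distances; for the differences in level and percentile it was the sign alone, since no p could pass 0.05 in this design. What limited the 0 h lists was not tested: the lowest −log10 p was 9.01 to 9.18 in all 4 lists, the genome-wide background was 2.77 and 2.65 reads before hCG and 2.76 and 2.13 reads after it, and read totals are not given in the sources used here.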

Other observations

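Some of the regions lay within 10 kb of a microRNA hairpin. The one with the highest mean percentile (97.1) stood 9950 bp from Mir23a on chromosome 8, with a fold of 12.9 and 19.4 at 0 h and 36.6 and 44.2 at 6 h. A region on chromosome 13 stood 8293 bp from Mirlet7a-1 and 8648 bp from Mirlet7f-1, with a fold of 6.47 and 11.5 at 0 h and 30.4 and 31.3 at 6 h. Others stood 8482 bp from Mir338 and 8129 bp from Mir499. The region nearest to a hairpin, 3860 bp from Mir1941, had a fold of 9.45 and 7.81 before hCG against 7.53 and 9.02 after it. The region 5776 bp from Gm51286, described above, had a ratio of 6 h to 0 h levels of 0.72. The X chromosome held 1 of the 430 regions, and chromosome 6, which carries the array, held 41.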
